A study of Mus musculus with 6 samples.

Results

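The genes that build cholesterol and fatty acids were examined in mouse intestinal organoids that lack Apc and differ in the label of IGF2BP3 overexpression. The 35 members were named by gene symbol: enzymes of the mevalonate and sterol pathways, enzymes that make, elongate and desaturate fatty acids, and the proteins that regulate both. All 35 were found among the 52249 genes of the deposited table, and 34 of them were among the 10687 genes with enough counts to be tested. Organoids are small gut epithelia kept growing in a dish. The control group was Apc-knockout organoids, and the other group was Apc-knockout organoids with IGF2BP3 overexpression, here called OE-labelled, with 3 libraries each. All 6 libraries thus lacked intact Apc, a tumour suppressor that restrains WNT signalling, and no library without that knockout was analysed here. IGF2BP3 is an RNA-binding protein. The labels give no age, strain, vector, promoter or clone for either group, and they do not say that the replicates were separate cultures, so p-values measure the spread between these libraries, which may be technical.

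Transcripts were counted at their 3′ ends, with 2180116 to 2519917 counts per library, and the control totals all lay below the OE-labelled totals. Igf2bp3 itself had 1 count in a single library of each group and 0 elsewhere, under the detection floor of 3 counts, so the counts gave no check of the overexpression label. By their names, the control and the OE-labelled libraries belong to separate library series, and series and group cannot be told apart. Of 11 epithelial markers, 9 had counts, with Epcam, Cdh1, Krt8, Krt18 and Krt19 among them and Krt20 and Cdx1 at 0 in every library. The summed level of these markers was 4280 to 4500 CPM (counts scaled to library size with TMM factors) in control and 5600 to 6330 CPM under the OE label. Of the 9 tested, 5 rose, Krt8, Krt18 and Krt19 among them, Cldn7 fell, and Epcam and Cdh1 did not pass (edgeR adjusted p = 0.586 and 0.528). Over all tested genes 16.5% rose and 12.7% fell. Of 10 goblet and Paneth cell markers, 8 had counts, and Lyz1 and Ang4 were at 0. Their sum ran from 621 to 646 CPM in the controls and from 1340 to 1570 CPM under the OE label. Most of each sum was Spink4, at 469 to 494 CPM in the controls and 1010 to 1250 CPM under the OE label. Of the 6 tested, 4 rose (beside 16.5% of all tested genes), and Muc2 and Clca1 did not pass (edgeR adjusted p = 0.697 and 0.497). The part of goblet and Paneth cells in the values below was not tested. In bulk RNA a changed number of such cells and a changed amount of RNA per cell cannot be told apart. Of 10 enterocyte markers, 4 had counts, with a sum of 5.99 to 7.37 CPM in the controls and 0.393 to 1.69 CPM under the OE label, and Alpi, Fabp1, Apoa1, Apoa4, Sis and Anpep were at 0. Most of the control sum was Apob, with 10, 13 and 16 counts in the controls and 1, 0 and 1 under the OE label. Apob was the only marker of this list tested, and it fell (edgeR adjusted p = 0.000532). The adipocyte and liver markers Adipoq, Plin1, Lep, Alb and Serpina1a had no count in any library, and nearly all of that list was Ttr. Fibroblast and muscle markers summed to at most 1.88 CPM and endothelial markers to at most 1.84 CPM. Of 8 immune markers, 4 were at 0, with Cd3e, Adgre1 and Lyz2 among them. The list summed to 41.8 to 51.6 CPM in the controls and 60.5 to 78.6 CPM under the OE label. Nearly all of it was Csf1r and Cd68, the 2 tested. Csf1r rose (log2 fold change 0.68, edgeR adjusted p = 0.0061) and Cd68 did not pass (edgeR adjusted p = 0.575).

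Cholesterol is made from acetyl-CoA through mevalonate, farnesyl diphosphate and squalene, and fatty acids are made from the same acetyl-CoA through malonyl-CoA. The genes of both routes are switched on by the transcription factors SREBP-1 and SREBP-2, encoded by Srebf1 and Srebf2. These factors are held in the endoplasmic reticulum by the INSIG proteins when sterols are plentiful and carried to the Golgi by SCAP when sterols run low, where they are cut free. On DNA they bind sterol regulatory elements and E-boxes, usually beside sites for the factors NF-Y, which binds CCAAT boxes, and SP1, which binds GC boxes. The intestinal epithelium is a tissue with high sterol and lipid synthesis.

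The promoters are shown first, as a description, because the factors named above bind such elements. The RefSeq promoter table (GRCm38.p6) held 28 of the 35 members, and the 250 bases before each listed start site were searched on both strands. Fdps, Fdft1, Sqle, Stard4, Scd1, Scd2 and Fads1 were not in it and were not searched. The CCAAT box, with the letters CCAAT, was found in 22 of the 28 members (78.6%), against 40.6% of 8388 tested genes in the same table. The GC box GGGCGG was found in 23 members (82.1%), against 66.6% of tested genes. The E-box CACGTG was found in 6 members (21.4%, against 10.6%). The sterol regulatory element TCACNCCAC was found in 1 member, Hmgcs1 (3.57%, against 1.2%). Its shorter core CACCCCAC, which can lie inside it, was found in Hmgcs1 and Acat2 (7.14%, against 3.2%). A match describes letters in this window, and genes with several listed starts had several windows. Printed here, from their 5′ ends and on the strand of the gene, are the promoters of Hmgcs1, which fell, and of Fasn, Mvd and Ebp, which rose. Capitals mark the sterol regulatory element and the CCAAT boxes, which read ATTGG on the opposite strand. No annotated exon of GENCODE M21 lay in these windows.
Hmgcs1, chr13:119690101-119690350, plus strand: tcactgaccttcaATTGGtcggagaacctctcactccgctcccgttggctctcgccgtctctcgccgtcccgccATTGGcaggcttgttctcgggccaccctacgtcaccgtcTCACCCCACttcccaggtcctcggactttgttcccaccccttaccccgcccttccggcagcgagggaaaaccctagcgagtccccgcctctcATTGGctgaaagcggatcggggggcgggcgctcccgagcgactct
Fasn, chr11:120824548-120824797, minus strand: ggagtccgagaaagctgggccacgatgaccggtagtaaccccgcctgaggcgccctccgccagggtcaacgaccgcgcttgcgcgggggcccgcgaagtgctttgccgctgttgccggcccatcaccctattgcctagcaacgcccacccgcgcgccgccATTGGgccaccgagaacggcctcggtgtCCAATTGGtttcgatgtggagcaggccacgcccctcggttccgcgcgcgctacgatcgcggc
Mvd, chr8:122443423-122443672, minus strand: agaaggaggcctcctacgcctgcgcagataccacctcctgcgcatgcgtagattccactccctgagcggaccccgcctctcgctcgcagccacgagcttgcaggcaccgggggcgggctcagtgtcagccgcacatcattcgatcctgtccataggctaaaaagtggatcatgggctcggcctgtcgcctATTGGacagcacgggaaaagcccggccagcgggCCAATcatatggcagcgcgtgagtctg
Ebp, chrX:8193513-8193762, minus strand: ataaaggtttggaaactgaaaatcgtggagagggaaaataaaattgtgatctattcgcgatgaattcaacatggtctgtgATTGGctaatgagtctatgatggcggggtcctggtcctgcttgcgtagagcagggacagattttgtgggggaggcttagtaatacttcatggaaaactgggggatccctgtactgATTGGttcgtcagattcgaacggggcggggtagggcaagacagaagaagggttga
The Hmgcs1 window held the element together with 3 CCAAT boxes. The Fasn window held 3 CCAAT matches, of which a pair overlap on opposite strands, and no E-box of the letters searched. Of the 6 members with an E-box, 3 are printed, in capitals with up to 11 bases on each side. They are the regulator Insig1, which fell, Elovl5, which rose, and Sc5d, which did not pass the test. The E-boxes of Dhcr7, which rose, and of Hsd17b7 and Scap, which did not pass, are not printed. The core element lay in front of Acat2, which rose.
Insig1 E-box, chr5:28071300-28071327, plus strand: ctgggtgaggtCACGTGgctccggtggc
Elovl5 E-box, chr9:77917193-77917220, plus strand: ctgccccgagaCACGTGaaccacaggag
Sc5d E-box, chr9:42264382-42264409, minus strand: tacgcggcgacCACGTGaccgccgcgac
Acat2 core element, chr17:12960888-12960917, minus strand: tggatcctccaCACCCCACcctaacccgac
Most of the members searched held a CCAAT box or a GC box, so such genes were bound to occur in each of these classes. Whether an element went with a direction was not tested.

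Between OE-labelled and control libraries, 9 of the 34 tested members rose and 3 fell at an adjusted p below 0.05 (edgeR quasi-likelihood test, adjusted over all tested genes). The rises were those of Fasn, Dhcr7, Elovl1, Fdft1, Acat2, Mvd, Elovl5, Ebp and Scd2, and the falls those of Insig1, Hmgcs1 and Stard4. The 12 calls made up 35.3% of the tested members, beside 29.2% of all tested genes. The share that rose was 26.5%, beside a background of 16.5%, and the share that fell was 8.82%, beside 12.7%. These shares lie near the background, and they are given as a description. The median log2 fold change of the members was 0.21, beside 0.04 for all tested genes, and 24 of the 34 values were above 0. For 18 members every library of one group lay above every library of the other (52.9%, beside 45.7% of all tested genes), with OE-labelled libraries above control for 15 (beside 25.3%) and below for 3 (beside 20.5%). Summed over all 35 members, the level was 5055 ± 23 CPM in the controls and 5578 ± 118 CPM under the OE label (SD, n = 3), with no overlap. The lowest count of any tested member in any library was 21.

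**Figure D1:**
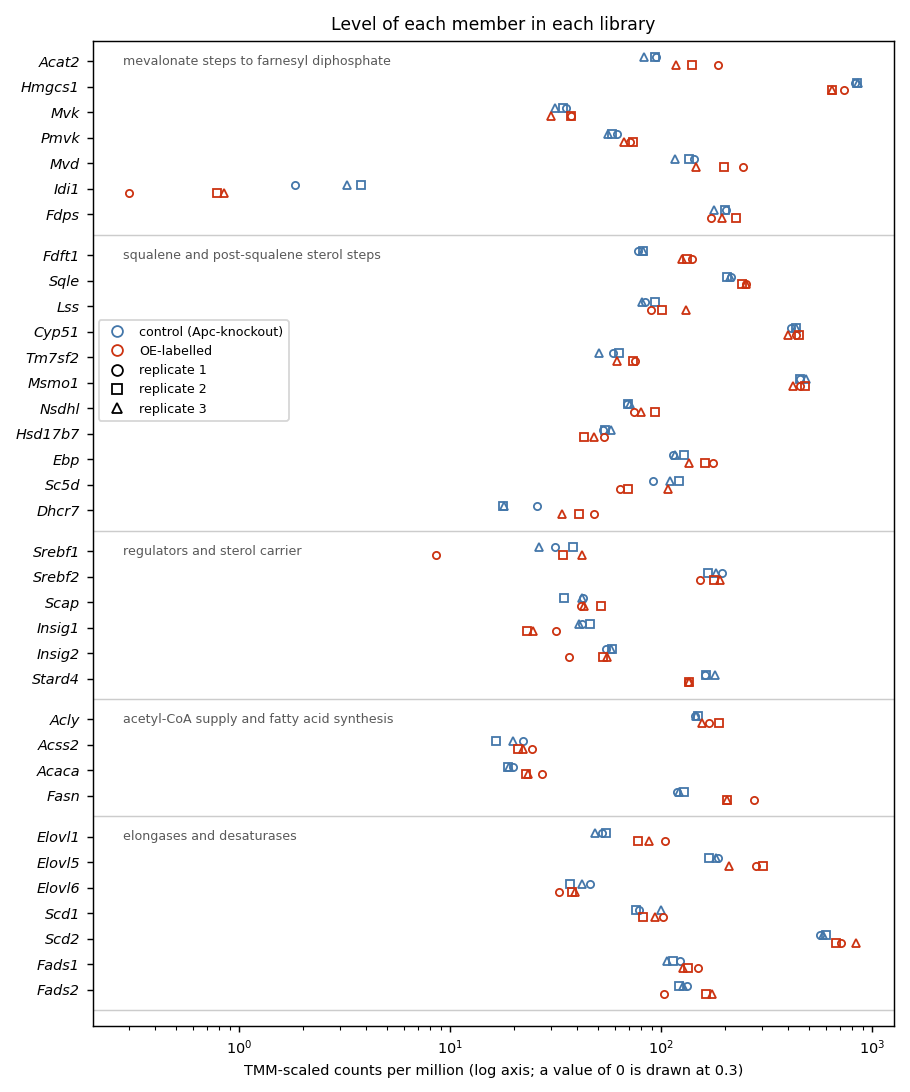
Level of each of the 35 members in each library, in TMM-scaled CPM on a log axis, grouped by role, with control libraries in blue and OE-labelled libraries in red and a marker shape for each replicate number. Fasn, Dhcr7, Fdft1 and Elovl1 have all red points to the right of the blue points, Insig1, Hmgcs1 and Stard4 have all red points to the left, and Srebf1 has 1 red point (8.51 CPM, replicate 1) far from the others.

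In the early steps, from acetyl-CoA to farnesyl diphosphate, 2 of 6 tested genes rose, 1 fell and 3 did not pass. Over all tested genes 16.5% rose and 12.7% fell. Counts within a role rest on few genes and are given as a description, and differences between roles were not tested. Acat2, the cytosolic thiolase that joins acetyl-CoA units (chromosome 17, 12942890 to 12960747 on the minus strand in GRCm38), was counted at 94, 92.9 and 82.9 CPM in the controls and 185, 140 and 117 CPM under the OE label, in replicate order. All OE-labelled values lay above all control values, and replicate 3 was the lowest in each group. The log2 fold change was 0.71 (SE 0.16, with adjusted p = 0.00521 by edgeR). Hmgcs1, whose product condenses these units to HMG-CoA (chromosome 13, 119690379 to 119708260 on the plus strand), went the other way, with 826, 844 and 855 CPM in the controls and 738, 643 and 646 CPM under the OE label. The groups did not overlap, but the gap was small beside the level. On the log2 scale the difference was -0.32 (SE 0.1, with adjusted p = 0.0256 by edgeR), and it shrank to -0.12 with an offset for GC content (adjusted p = 0.497). The 3 fits without 1 control library and the fit without OE-labelled replicate 2 also did not pass, with values from -0.44 to -0.28 over the 6 fits that each left out a library. Hmgcs1 overlaps 1 annotated gene on the opposite strand.

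Mevalonate is phosphorylated by the products of Mvk and Pmvk and decarboxylated by that of Mvd. Mvd (chromosome 8, 122433601 to 122443422 on the minus strand) was counted at 143, 135 and 116 CPM in the controls and at 244, 198 and 147 CPM under the OE label. The lowest OE-labelled value, of replicate 3, lay just above the highest control value. Its log2 fold change was 0.58 (SE 0.16, with adjusted p = 0.0193 by edgeR), which no longer passed with the GC offset (0.33, adjusted p = 0.147), with the transcript length offset (0.42, adjusted p = 0.0863) or in the fits without any single control library or OE-labelled replicate 2. Mvd overlaps 1 annotated gene on the opposite strand. Pmvk, from 55.8 to 61.3 CPM in the controls and from 66.8 to 73.5 CPM under the OE label, did not overlap between groups and did not pass (log2 fold change 0.27, SE 0.12, adjusted p = 0.118 by edgeR). Mvk was at 33.7 ± 2.13 and 34.9 ± 4.21 CPM (SD, n = 3), with overlapping groups and an adjusted p of 0.834 (edgeR). Fdps, which builds farnesyl diphosphate, was at 193 ± 13.9 and 198 ± 27.1 CPM (SD, n = 3, edgeR adjusted p = 0.846). Fdps overlaps 2 annotated genes on its own strand and is among the 2 members with fractional deposited values.

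Idi1, the isopentenyl diphosphate isomerase, was the member not tested. It had 4, 8 and 7 counts in control and 0, 2 and 2 counts under the OE label, far fewer than any other member. The OE-labelled libraries were all under the detection floor of 3 counts per library, which lay between 1.18 and 1.41 CPM. Pooled over the groups, the ratio of OE-labelled to control was 0.185, with an exact binomial 95% interval from 0.0457 to 0.556 that covers counting error only. In the fit with no count filter Idi1 had an adjusted p of 0.0148 (edgeR). Idi1 overlaps 1 annotated gene on the opposite strand.

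The later steps, from farnesyl diphosphate through squalene to cholesterol, held 3 rises and 0 falls among 11 tested genes, and 8 did not pass. The rises were 27.3%, beside 16.5% of all tested genes, and falls were 12.7% of all tested genes. Fdft1, squalene synthase, is the step at which the pathway commits to sterols (chromosome 14, 63145150 to 63179578 on the minus strand). Its level was 77.9, 82.1 and 82 CPM in the controls and 140, 132 and 125 CPM under the OE label. Every OE-labelled value was well above every control value, and the spread within each group was small. Its log2 fold change was 0.72 (SE 0.11, with adjusted p = 0.00072 by edgeR). Fdft1 overlaps Ctsb on the opposite strand, and the strand setting of the counting is not given in the sources used here, so reads of such overlapping genes cannot be told apart.

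Dhcr7, the reductase of a final step to cholesterol (chromosome 7, 143823145 to 143848410 on the plus strand), had the largest fold change of the members tested. It was counted at 25.8, 17.8 and 18 CPM in the controls and at 48.2, 40.9 and 33.8 CPM under the OE label. The groups did not overlap, and replicate 1 was the highest in each. This gave a log2 fold change of 1 (SE 0.2, with adjusted p = 0.00321 by edgeR), which is a 1.99-fold level. Ebp, the sterol isomerase upstream of it (chromosome X, 8185329 to 8193512 on the minus strand), was at 114, 128 and 116 CPM in the controls and 176, 161 and 136 CPM under the OE label. Its groups lay apart, with OE-labelled replicate 3 nearest to the controls. The log2 fold change was 0.4 (SE 0.12, with adjusted p = 0.0278 by edgeR), and 12 of 20 alternative settings did not pass, among them DESeq2 (adjusted p = 0.0954), the GC offset (0.33, edgeR adjusted p = 0.0891) and each fit without a control library or without OE-labelled replicate 1 or 2.

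The rest of the sterol steps did not pass. Sqle, squalene epoxidase and a rate-limiting enzyme of the pathway, was at 214, 204 and 211 CPM in the controls and 253, 241 and 253 CPM under the OE label. The groups lay apart by a narrow margin. On the log2 scale the difference was 0.25 (SE 0.1, with adjusted p = 0.074 by edgeR), and it passed with library totals in place of TMM factors and with the length offset. Lss, which closes the ring of lanosterol, had 0.32 (SE 0.15, with adjusted p = 0.119 by edgeR), with OE-labelled replicate 3 at 131 CPM above the others of its group at 89.5 and 101 CPM. It passed with the length offset (adjusted p = 0.0216) and without OE-labelled replicate 1 (adjusted p = 0.0284). Tm7sf2, a sterol reductase, had 0.29 (SE 0.14) and Nsdhl, which helps to remove methyl groups from the ring, 0.25 (SE 0.13), with edgeR adjusted p of 0.136 and 0.16. Tm7sf2 passed without OE-labelled replicate 3. It overlaps 1 gene on its own strand and holds fractional values.

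The abundant enzymes Cyp51, the lanosterol demethylase, and Msmo1, a sterol methyl oxidase, had nearly equal levels in the groups. Cyp51 was at 426 ± 12.6 CPM in the controls and 428 ± 27.5 CPM under the OE label, and Msmo1 at 463 ± 16.8 and 452 ± 30.5 CPM (SD, n = 3). Their log2 fold changes were 0.01 and -0.03, each with an SE of 0.1 (edgeR adjusted p = 0.969 and 0.823). Hsd17b7, at 54.9 ± 2.42 and 48 ± 5.31 CPM (SD, n = 3), had -0.19 (SE 0.14, with adjusted p = 0.311 by edgeR). Sc5d, the sterol desaturase that acts between Ebp and Dhcr7, was at 91.2, 122 and 110 CPM in the controls and 63.6, 69.2 and 107 CPM under the OE label. OE-labelled replicate 3 lay within the control range and the other OE-labelled libraries below it. Its log2 fold change was -0.43 (SE 0.18, with adjusted p = 0.0999 by edgeR). Without OE-labelled replicate 3 it was -0.69 and passed.

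Among the 6 regulators and carriers, 0 rose (beside 16.5% of all tested genes) and 2 fell (beside 12.7%). Insig1, which retains the SREBP carrier SCAP in the endoplasmic reticulum and is itself an SREBP target, fell (chromosome 5, 28071363 to 28078662 on the plus strand). It was counted at 41.9, 46 and 40.5 CPM in the controls and 31.6, 23.2 and 24.5 CPM under the OE label. All OE-labelled values lay below all control values, with replicate 1 nearest to the controls. This gave a log2 fold change of -0.69 (SE 0.17, with adjusted p = 0.00827 by edgeR), which passed in all 20 alternative settings (adjusted p up to 0.0476). Its paralogue Insig2 was at 54.8, 58.2 and 57.6 CPM in the controls and 36.5, 53.1 and 55.4 CPM under the OE label. The groups overlapped narrowly, and replicate 1 was the lowest of all. The log2 fold change was -0.24 (SE 0.16, with adjusted p = 0.294 by edgeR).

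Stard4, a carrier that moves cholesterol between membranes, was at 161, 163 and 179 CPM in the controls and at 133, 135 and 136 CPM under the OE label. The OE-labelled values lay close together and below the controls. On the log2 scale the difference was -0.31 (SE 0.1, with adjusted p = 0.0386 by edgeR). It did not pass in 12 of 20 alternatives, among them DESeq2 (adjusted p = 0.0557), the GC offset (-0.14, edgeR adjusted p = 0.407) and each fit without a control library or without OE-labelled replicate 2.

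The transcripts of the transcription factors and of their carrier did not pass the test. Srebf1 was at 31.3, 38 and 26.3 CPM in the controls and 8.51, 34.2 and 41.9 CPM under the OE label. OE-labelled replicate 1 was the lowest of all 6 libraries and replicate 3 the highest. Its log2 fold change was -0.18 (SE 0.38, with adjusted p = 0.756 by edgeR), and without OE-labelled replicate 1 it became 0.2 (adjusted p = 0.432). Srebf2 was at 194, 166 and 181 CPM in the controls and 152, 178 and 190 CPM under the OE label, with overlapping groups and a log2 fold change of -0.06 (SE 0.12, with adjusted p = 0.756 by edgeR). Scap was at 42.4, 34.7 and 41.9 CPM in the controls and 41.7, 51.5 and 43.1 CPM under the OE label (log2 fold change 0.2, SE 0.15, adjusted p = 0.355 by edgeR). Srebf1 overlaps 3 annotated genes (2 on its own strand and 1 on the other), and Srebf2 overlaps 2 on its own strand. The activity of SREBP proteins is set by their cleavage, which these counts do not measure.

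In the supply of acetyl-CoA and the synthesis of fatty acids, 1 of 4 tested genes rose (beside 16.5% of all tested genes) and 3 did not pass. Fasn, fatty acid synthase (chromosome 11, 120805846 to 120824547 on the minus strand), was counted at 119, 128 and 121 CPM in the controls and at 275, 204 and 205 CPM under the OE label. The groups lay far apart, with OE-labelled replicate 1 above the other libraries of its group. This gave a log2 fold change of 0.89 (SE 0.13, with adjusted p = 0.000539 by edgeR), or 1.86-fold. The change was 0.65 with the GC offset and 1.17 with the length offset, and it passed in all 20 alternative settings. Acaca, which makes the malonyl-CoA that fatty acid synthase uses, had 40 to 43 counts per control library and 55 to 67 counts per OE-labelled library. Its groups did not overlap (log2 fold change 0.35, SE 0.18, adjusted p = 0.166 by edgeR), and it passed with the length offset (adjusted p = 0.0316). Acly, which makes acetyl-CoA from citrate, was at 144, 149 and 146 CPM in the controls and 168, 187 and 156 CPM under the OE label. The groups did not overlap, and the log2 fold change was 0.22 (SE 0.11, with adjusted p = 0.146 by edgeR). Acss2, which makes acetyl-CoA from acetate, was at 19.4 ± 2.87 and 22.4 ± 1.77 CPM (SD, n = 3, edgeR adjusted p = 0.463), and it overlaps 5 annotated genes (2 on its own strand and 3 on the other).

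Of the 7 elongases and desaturases, 3 rose (beside 16.5% of all tested genes) and 0 fell (beside 12.7%). Elovl1, an elongase of very long saturated chains (chromosome 4, 118428093 to 118432953 on the plus strand), was at 52.5, 54.4 and 48.4 CPM in the controls and 104, 77.9 and 87.1 CPM under the OE label. The groups were well separated. The log2 fold change was 0.79 (SE 0.14, with adjusted p = 0.00148 by edgeR). Elovl1 overlaps Cdc20 on the opposite strand. Elovl5, an elongase of polyunsaturated chains (chromosome 9, 77917364 to 77984519 on the plus strand), was at 185, 168 and 182 CPM in the controls and 282, 303 and 208 CPM under the OE label. OE-labelled replicate 3 was closest to the control range. On the log2 scale the difference was 0.57 (SE 0.14, with adjusted p = 0.00818 by edgeR), and it did not pass without control replicate 2 or without OE-labelled replicate 2 (adjusted p up to 0.0638). Elovl6, which elongates palmitate, did not pass, at 41.7 ± 4.52 and 36.5 ± 3.23 CPM (SD, n = 3, log2 fold change -0.19, SE 0.15, adjusted p = 0.364 by edgeR).

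Stearoyl-CoA desaturases put the double bond into newly made saturated chains. Scd2 (chromosome 19, 44293674 to 44306864 on the plus strand) was at 567, 601 and 586 CPM in the controls and 709, 672 and 835 CPM under the OE label. The groups did not overlap, and OE-labelled replicate 3 was the highest. Scd2 holds a microRNA gene on its own strand. Its log2 fold change was 0.34 (SE 0.1, with adjusted p = 0.0289 by edgeR). It did not pass in 9 of 20 alternatives, among them DESeq2 (adjusted p = 0.076) and each fit without a control library. Scd1 was at 78.3, 75.5 and 100 CPM in the controls and 102, 81.8 and 93.4 CPM under the OE label, with overlapping groups (log2 fold change 0.12, SE 0.14, adjusted p = 0.537 by edgeR). Fads1 and Fads2, the desaturases of polyunsaturated chains, had log2 fold changes of 0.26 (SE 0.12) and 0.2 (SE 0.17) and did not pass (edgeR adjusted p = 0.109 and 0.377). Fads2 was at 103 CPM in OE-labelled replicate 1 and at 162 and 174 CPM in the others, against 122 to 132 CPM in control. Without that replicate Fads2 passed (0.35, adjusted p = 0.015), and Fads1 passed without OE-labelled replicate 3.

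**Figure D2:**
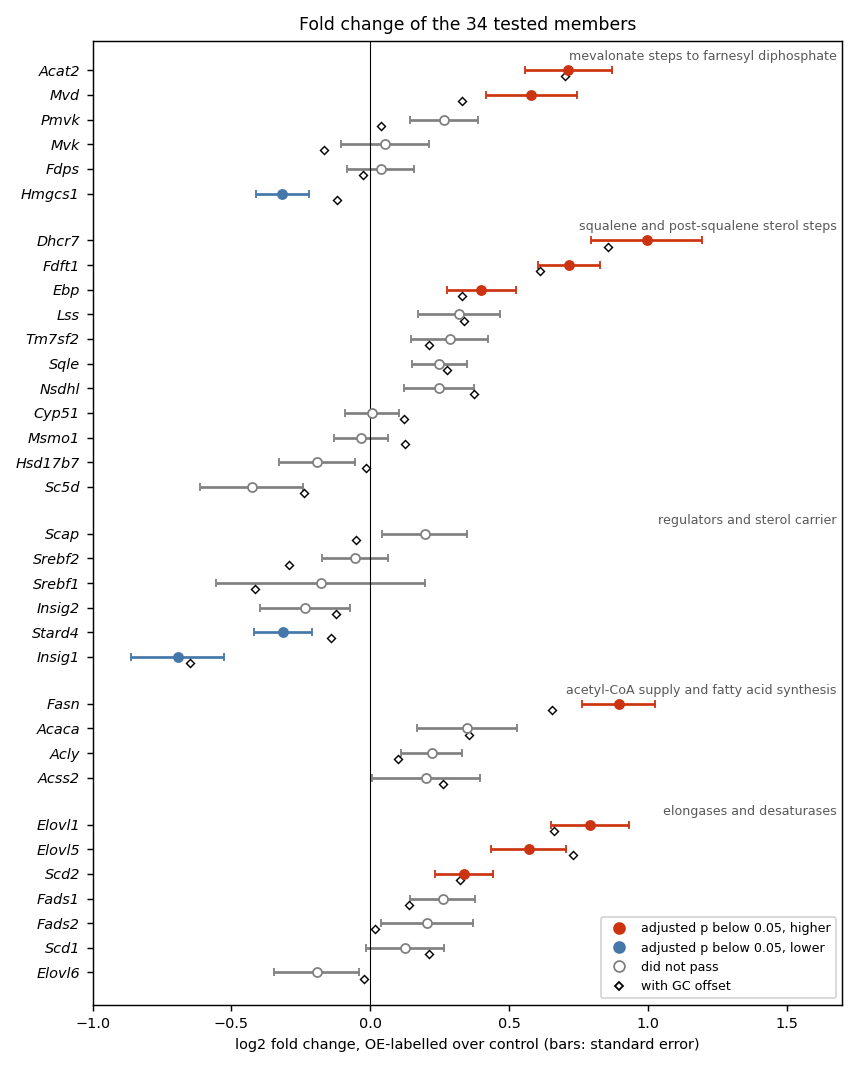
Log2 fold change, OE-labelled over control, of the 34 tested members by role, with bars of 1 standard error, filled where the adjusted p was below 0.05 (red higher, blue lower), and with open diamonds for the value under the GC offset. Fasn moves from 0.89 to 0.65 and Hmgcs1 from -0.32 to -0.12 under the offset, and Insig1 from -0.69 to -0.65.

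Calls that held in all 20 alternative settings were those of 6 of the 12 members: Acat2, Fdft1, Dhcr7, Fasn and Elovl1, which rose, and Insig1, which fell. The fold changes were compared with sequence composition because the log2 fold change followed transcript GC content over all tested genes (Spearman rho 0.37 over 10679 genes, which are not independent and share the 6 libraries). Over the 34 tested members rho was 0.49. The longest annotated transcript had a median GC content of 51.8% for the members that rose, 43.9% for those that fell and 48.9% for those that did not pass, against 49.7% for all tested genes. With a GC offset per library, 7 members rose (beside 12.7% of tested genes) and 1 fell (beside 10.3%), or 8 in all (beside 23.0%). Their median log2 fold change was then 0.13, against 0.03 for all tested genes. All 8 were among the 12 called without the offset.

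**Figure D3:**
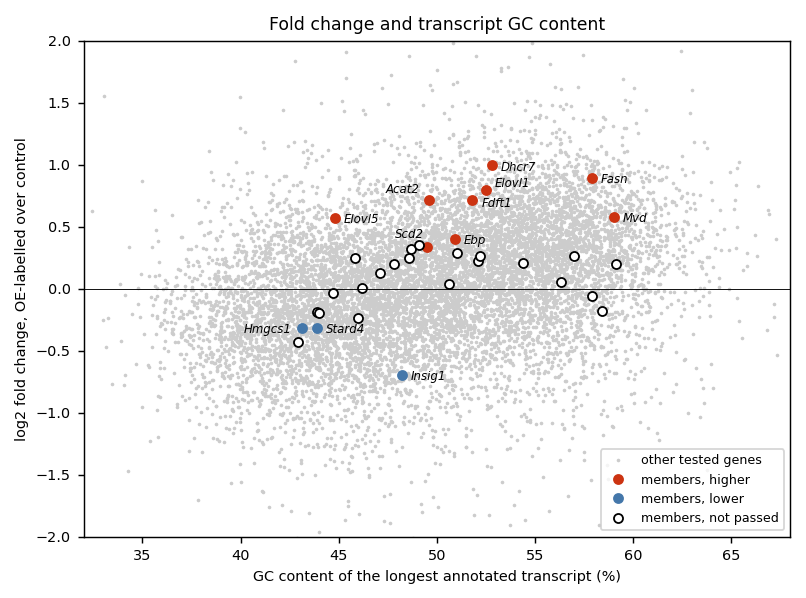
Log2 fold change, OE-labelled over control, against the GC content of the longest annotated transcript for tested genes (grey), with members that rose in red, fell in blue and did not pass in white, and 44 tested genes outside the axes. The members that rose have a median GC content of 51.8%, with Elovl5 the lowest of them at 44.8%, and Hmgcs1 and Stard4 lie at 43.1% and 43.9%.

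Within each group, the median coefficient of variation of the members was 6.16% over the controls and 11.6% over OE-labelled libraries, beside 10.5% and 15.9% for all tested genes, and this difference was not tested. The widest spread was that of Srebf1 in OE-labelled libraries, at 62%. Relative to the control mean, with 1 CPM added, the median member stood at 0.17, 0.23 and 0.15 on the log2 scale in OE-labelled replicates 1, 2 and 3, where the median of all tested genes stood at -0.001, 0.05 and 0.07. OE-labelled replicate 1 was the highest of its group for 15 of the 34 members (44.1%, beside 36.3% of all tested genes). It was the lowest for 11 (32.4%, beside 36.7%). Ratios of related members within a library do not depend on the scaling. The ratio of Elovl1 to Elovl6 counts was 1.14, 1.47 and 1.15 in the controls and 3.17, 2.06 and 2.24 under the OE label. These ranges lay apart, with a two-sided exact permutation p of 0.1, the smallest that 3 against 3 libraries can give, and 0.5 after adjustment over 5 ratios. The ratio of Insig1 to Insig2 was 0.765, 0.79 and 0.704 in the controls and 0.867, 0.437 and 0.443 under the OE label, so that replicate 1 lay above and the others below the controls. The ratios of Srebf1 to Srebf2, Scd1 to Scd2 and Fads1 to Fads2 also overlapped between the groups.

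The summed level of the members was also set out by role. Acetyl-CoA supply and fatty acid synthesis genes summed to 307.5 ± 3.87 CPM in the controls and 445.2 ± 44.5 CPM under the OE label, and elongases and desaturases to 1182 ± 10.3 and 1505 ± 51.1 CPM (SD, n = 3). The later sterol steps summed to 1695 ± 37.1 and 1849 ± 48.9 CPM (SD, n = 3). In each of these 3 roles all OE-labelled sums lay above all control sums. The early mevalonate steps summed to 1351 ± 26.3 and 1323 ± 122 CPM, with overlapping groups, and the regulators and carrier to 519.2 ± 12.1 and 456.7 ± 46.4 CPM (SD, n = 3), with all OE-labelled sums below the controls. A sum follows its most abundant genes.

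Other genes of lipid synthesis and sterol handling were taken from a list of 75, of which 61 were tested. Of these 17 rose (27.9%, beside 16.5% of all tested genes) and 8 fell (13.1%, beside 12.7%), or 41% in all (beside 29.2%). Their median log2 fold change was -0.07, beside 0.04 for all tested genes. In the sterol and isoprenoid branches 4 of 11 rose (beside 16.5% of all tested genes) and 4 fell (beside 12.7%). Dhdds, which makes dolichol precursors, rose by 0.81 on the log2 scale (SE 0.15, with adjusted p = 0.00227 by edgeR). Cyb5r3, a reductase that feeds electrons to sterol and fatty acid desaturation, rose from 180 ± 15.8 to 286 ± 39.8 CPM (SD, n = 3, edgeR adjusted p = 0.00215). Acat1, the mitochondrial thiolase, fell from 60.9 ± 6.7 to 36.5 ± 7.38 CPM (SD, n = 3, edgeR adjusted p = 0.0062), opposite to its cytosolic counterpart Acat2. Por, the electron donor of Cyp51 and Sqle, fell by 0.47 on the log2 scale (SE 0.13, with adjusted p = 0.0161 by edgeR), a call lost without control replicate 1 or 2.

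The SREBP proteases Mbtps1 and Mbtps2, named here after their values were seen, did not pass (log2 fold change -0.1 and -0.25, edgeR adjusted p = 0.563 and 0.389). In sterol uptake, storage and efflux, 4 of 13 tested genes rose (beside 16.5% of all tested genes) and 1 fell (beside 12.7%). Lipa, the lysosomal lipase that frees cholesterol from its esters, rose from 27.1 ± 2.29 to 44 ± 7.1 CPM (SD, n = 3, edgeR adjusted p = 0.00886), a call lost without control replicate 1. Stard5, a sterol carrier, rose from 31.7 ± 1.1 to 50.1 ± 4 CPM (SD, n = 3, edgeR adjusted p = 0.00483). Lrp1, a lipoprotein receptor, fell by 0.63 on the log2 scale (SE 0.15, with adjusted p = 0.00909 by edgeR), a call lost with the length offset (-0.27, adjusted p = 0.206) and without control replicate 3. The efflux transporters Abca1, Abcg1, Abcg5 and Abcg8 had at most 3 counts in any library and were likewise chosen with their values known.

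In fatty acid synthesis, elongation and activation, 6 of 17 tested genes rose (beside 16.5% of all tested genes) and 3 fell (beside 12.7%). Tecr, the reductase that completes each elongation cycle, rose from 165 ± 16 to 267 ± 42.1 CPM (SD, n = 3, edgeR adjusted p = 0.00221). Slc25a1, the carrier that exports citrate from mitochondria, rose from 107 ± 9.54 to 166 ± 25.6 CPM (SD, n = 3, edgeR adjusted p = 0.00388). The acyl-CoA synthetases Acsl3 and Acsl5, which activate fatty acids, fell. Acsl3 was at 204, 228 and 225 CPM in the controls and 122, 111 and 106 CPM under the OE label. All OE-labelled values were far below the controls, with a log2 fold change of -0.95 (SE 0.11, with adjusted p = 0.000144 by edgeR). Acsl3 overlaps 1 annotated gene on its own strand and holds fractional values. Acsl5 had -0.43 (SE 0.12, with adjusted p = 0.02 by edgeR), and it did not pass without any single control library. In glycerolipid assembly 2 of 11 tested genes rose (beside 16.5% of all tested genes) and 0 fell (beside 12.7%). Dgat2, which completes triglyceride synthesis, rose from 24.1 ± 1.16 to 51.9 ± 4.25 CPM (SD, n = 3), which is 1.1 on the log2 scale (SE 0.15, with adjusted p = 0.000361 by edgeR). Agpat2 rose by 0.42 (SE 0.13, with adjusted p = 0.0301 by edgeR), a call lost in 13 of 20 alternatives, DESeq2 among them (adjusted p = 0.135).

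**Figure D4:**
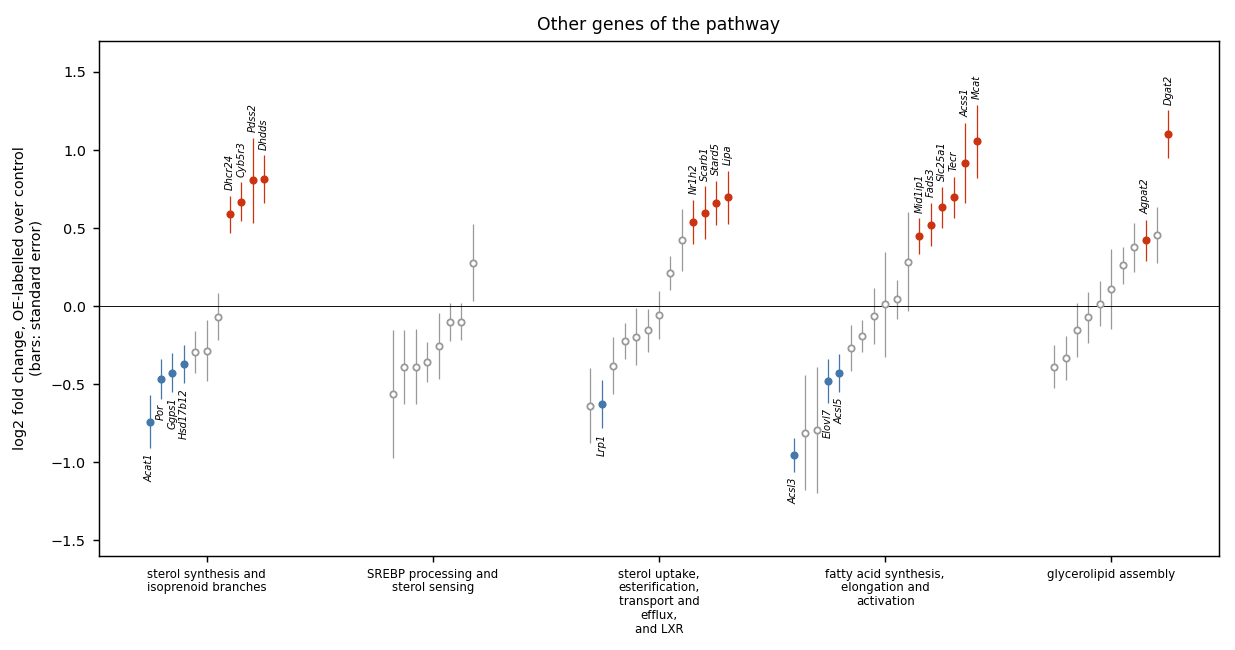
Log2 fold change, OE-labelled over control, of the tested genes of the wider pathway in 5 groups, except 1 gene that is not reported here, with bars of 1 standard error and names for genes with an adjusted p below 0.05 (red higher, blue lower). Dgat2 at 1.1 is the highest and Acsl3 at -0.95 the lowest.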

How the data were processed

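The 6 libraries for 3′ end sequencing were made from 500 ng of total RNA each with a QuantSeq 3′ forward kit, per the labels' protocols. The submitters' processing notes name STAR and HTSeq and the builds mm10 and GRCm38. The annotation, strand setting, treatment of molecular identifiers and of multi-mapping reads are not given in the sources used here. The values deposited are estimated counts that were not normalized, of which 2843 are fractional, and they were rounded here. Groups and replicate numbers came from the sample titles, and columns were matched through the library names. All columns of values were used.

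Differences were tested with edgeR 4.0.16 in R 4.3.3 (filterByExpr, TMM, quasi-likelihood test without covariates), adjusted by Benjamini-Hochberg over 10687 genes, although whole counts had been planned for. CPM are TMM-scaled, and a standard error is the estimate over the square root of F. The fit was also run on simulated counts with a common dispersion for all genes, which is no check of the calls made here. GC and length offsets are loess curves per library (span 0.5) over the longest GENCODE M21 transcript. The libraries count 3′ ends, and the values of a whole transcript need not be those of its counted end. The table's identifiers matched M21 for 99.3%. Alternatives were DESeq2 1.42.0, its size factors, library totals, limma-voom (limma 3.58.1), other count filters, equal depth, no mitochondrial genes, the GC offset, the replicate block, a threshold of 0.01, unrounded counts and each library left out. The length offset was added after the data were seen. The members and lists were chosen with earlier results of these data known. Members were named in full where they passed or regulate the pathway, and other genes as up to 2 per group and direction with the smallest p. Depth was 2180116 to 2519917 counts, and floors and intervals cover counting error only. A gene of the wider list and a marker are not reported by name here.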

Additional observations from a re-analysis of the deposited data

How the results depend on the processing

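The 20 alternatives were run on 48 named genes, and of the 960 values 845 kept their direction and side of the threshold, 73 no longer passed, 11 newly passed and 31 changed sign. In 22 of the 48 genes nothing changed under any alternative. Values here are log2 fold changes or counts of genes with an adjusted p below 0.05, and the cause of a difference between settings was not tested. At an adjusted p below 0.01, 1578 genes were called, 944 higher and 634 lower. At that threshold 6 members were higher and 1 lower, and 13 other pathway genes were called, 10 higher and 3 lower. DESeq2 called 1059 genes higher. With the GC offset 7 members were higher and 1 lower. With the replicate block and the GC offset together, 6 were higher and 1 lower. Leaving out each library in turn gave 1748 to 3532 genes, 1033 to 1959 higher and 715 to 1731 lower, 5 to 11 members higher and 1 to 4 lower, and 13 to 32 other pathway genes, 10 to 20 higher and 3 to 12 lower. The lowest number of genes came without control replicate 3 and the highest without OE-labelled replicate 3. With 1 library left out, the remaining spread comes from 5 libraries.

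The median over members was 0.168 with DESeq2 size factors, 0.169 with the DESeq2 test, 0.262 with library totals, 0.157 without mitochondrially encoded genes, 0.132 with the GC offset, 0.128 with the block and the GC offset, and 0.15 to 0.239 without single libraries. Sign changes were all in members that did not pass. Mvk had -0.00352 without mitochondrial genes, -0.168 with the GC offset, -0.172 with both block and GC terms, -0.0609 with the length offset, and -0.0515 to 0.151 without single libraries. Fdps had -0.00722 with DESeq2 size factors, -0.00719 with DESeq2, -0.018 without mitochondrial genes, -0.026 with the GC offset, -0.03 with both block and GC terms, -0.0324 with the length offset, and -0.102 to 0.0719 without single libraries. Cyp51 had -0.0367, -0.0366 and -0.0495 with DESeq2 size factors, DESeq2 and no mitochondrial genes, -0.0273 with no count filter, and -0.0611 to 0.0602 without single libraries. Msmo1 had 0.0138 with library totals, 0.123 with the GC offset, 0.119 with the block and GC offset, and -0.108 to 0.0198 without single libraries. Srebf2 had 0.0408 with the length offset. Scap had -0.0513 with the GC offset and -0.053 with the block added, and Fads2 had -0.00981 with the block and GC offset. Without single libraries Srebf1 ran from -0.563 to 0.197 and Scd1 from -0.00741 to 0.261.

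Same-numbered libraries of the groups correlated at 0.097, 0.018 and 0.069 in their deviations, so the pairing rests on a number alone. With the replicate block 3112 genes were called, with 9 members higher and 3 lower and a median of 0.211. Stard4 did not pass with the block (adjusted p = 0.0524, edgeR) and Sc5d did (adjusted p = 0.043, edgeR). Idi1, at most 8 counts in a library, was tested only in the fit with no count filter.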

Other observations

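OE-labelled replicate 1 had the lowest count of all 6 libraries for several lipid genes, of which Srebf1 and a few of the wider list are given here, chosen after their values were seen. Over all tested genes, this library had the lowest level within the OE-labelled group for 36.7%. That share leaves out the controls, so it is no background for the lowest count of all 6 libraries. The share of tested genes with their lowest count of all 6 libraries here was not computed. Erlin1, a membrane protein of the endoplasmic reticulum that takes part in sterol sensing, had 25, 35 and 31 counts in the controls and 6, 35 and 29 under the OE label. Hacd2, a dehydratase of fatty acid elongation, had 26, 39 and 39 counts in the controls and 7, 24 and 37 under the OE label. Srebf1 had 68, 81 and 57 counts in the controls and 21, 87 and 99 under the OE label. Nus1, which works with Dhdds in dolichol synthesis, had 177, 175 and 186 counts in the controls and 107, 206 and 190 under the OE label. Acsl4, an acyl-CoA synthetase, had 486, 414 and 473 counts in the controls and 333, 537 and 430 under the OE label.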
